A study of Mus musculus with 2 samples.

Results

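Some stretches of DNA had significant q-values for DNase I cleavage in both muscles, yet lay in no peak of the longer peak lists. They were short and lay beside strong open sites, mostly in promoter windows. They numbered 610 runs of 36230 runs in all (1.68%), and the other 35620 runs overlapped a peak. A run is a stretch of neighbouring bases whose q-value (false discovery rate for cleavage, as listed for a base) was at or below 0.001 in both libraries. The sources used here do not state how many surrounding bases enter the q-value of a base. The cuts behind a run's q-value may therefore lie partly outside it. Runs of 20 bp or more were kept, and a run counted as outside when it overlapped no peak of the longer list of either library. The 610 runs covered 28.9 kb and fell into 522 loci when runs within 500 bp were joined, and 76 loci held more than 1 run. No outside run lay more than 437 bp from a peak, and 81.3% overlapped a promoter window. Of 7844 protein-coding genes without a peak at any coding start site, 0 had a run at one. The number depended on the use of both animals. With the q-values and longer peak list of replicate 2 alone the same rule gave 2667 runs. The farthest of these lay 116884 bp from a peak of that library. With those of replicate 1 alone it gave 1076 runs, the farthest 649 bp from a peak of that library.

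DNase I cuts DNA that is not wrapped around nucleosomes or otherwise shielded, so frequent cutting points to promoters, enhancers and insulators in an open state. At an active promoter the open region spans the start site, where transcription factors and the polymerase machinery bind, and the first nucleosome downstream of the start is commonly well positioned. Peak callers place narrow intervals on local summits of cleavage density, whereas a per-base false discovery rate marks the whole stretch of raised cleavage, so that both descriptions of an open site need not have the same borders.

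The data were DNase-seq of the gastrocnemius, the large calf muscle, from 2 male mice aged 36 days. The mice were B6CASTF1/J, first-generation hybrids of the C57BL/6J and CAST/EiJ strains, named replicate 1 and replicate 2 in the labels. They formed 1 group with no contrast, and each had 1 library made from nuclei of whole tissue. All cell types of the muscle could therefore contribute. Promoter peaks were present in both libraries at 11 of 11 marker genes of muscle fibres, 6 of 6 of endothelium, 3 of 5 of satellite cells, 4 of 6 of fibro-adipogenic cells, 1 of 6 of macrophages and 1 of 4 of adipocytes. They were present at 3 of 5 Schwann cell, 2 of 5 smooth muscle, 2 of 4 tendon, 0 of 4 lymphocyte and 0 of 4 erythroid markers. Among markers of other tissues the counts were 0 of 4 for liver, 0 of 3 for keratinocytes, 1 of 4 for neurons, 1 of 3 for heart and 1 of 2 for germ cells.

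The depth in reads is unknown, since the deposited files hold no counts. The smallest unit of peak signal was 0.0123 for replicate 1 and 0.00657 for replicate 2, a ratio of 1.88, and 100% of the different peak values lay within 0.05 units of a whole number of units. Replicate 2 had 18.2 Mb at or below a q-value of 0.001 and replicate 1 had 13.6 Mb. Several values given below also differed between the libraries, and the part of these differences in them was not tested. The members were chosen by q-values and peak positions, so run length, q-value and position relative to peaks are descriptions and carry no test. No test was run on the other features either, because runs are not replicates of a condition, and 95% intervals (exact Clopper-Pearson) cover counting error only.

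The 7 of the 10 longest runs that overlapped no annotated untranslated region are shown with the longest exonic run, to let their base composition and motif matches be read directly. Sequences are the + strand of mm10 (GRCm38.p6), which is the C57BL/6J reference and not the CAST/EiJ allele. Capitals mark matches on either strand to a GC box (GGGCGG), a CRE half-site (TGACG), an E-box (CAGCTG), an MCAT site (CATTCC) or an NF-Y site (CCAAT), each one of 13 motifs searched.
Nup35 promoter, chr2:80638941-80639149: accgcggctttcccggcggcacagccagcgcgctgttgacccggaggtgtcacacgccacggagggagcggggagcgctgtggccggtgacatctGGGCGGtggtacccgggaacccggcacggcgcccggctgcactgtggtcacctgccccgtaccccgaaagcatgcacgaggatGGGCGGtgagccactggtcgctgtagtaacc
Cyld promoter, chr8:88697204-88697406: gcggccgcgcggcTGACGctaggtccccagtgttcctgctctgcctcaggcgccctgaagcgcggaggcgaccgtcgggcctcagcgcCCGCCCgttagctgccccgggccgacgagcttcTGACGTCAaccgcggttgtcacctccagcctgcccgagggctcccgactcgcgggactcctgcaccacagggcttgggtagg
Mtch2 promoter, chr2:90847490-90847648: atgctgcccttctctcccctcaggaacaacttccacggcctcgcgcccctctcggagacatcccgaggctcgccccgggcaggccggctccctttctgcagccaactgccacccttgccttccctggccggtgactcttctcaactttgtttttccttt
Taco1 promoter, chr11:106066249-106066405: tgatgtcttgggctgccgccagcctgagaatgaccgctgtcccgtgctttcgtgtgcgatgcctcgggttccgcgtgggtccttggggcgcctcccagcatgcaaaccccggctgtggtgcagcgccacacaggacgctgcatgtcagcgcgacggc
Intergenic, nearest coding start Pgf, chr12:85194545-85194742: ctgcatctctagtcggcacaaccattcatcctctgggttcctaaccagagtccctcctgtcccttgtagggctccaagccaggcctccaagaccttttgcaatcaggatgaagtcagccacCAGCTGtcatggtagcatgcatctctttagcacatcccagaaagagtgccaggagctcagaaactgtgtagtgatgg
Intergenic, nearest coding start Cyth4, chr15:78624480-78624638: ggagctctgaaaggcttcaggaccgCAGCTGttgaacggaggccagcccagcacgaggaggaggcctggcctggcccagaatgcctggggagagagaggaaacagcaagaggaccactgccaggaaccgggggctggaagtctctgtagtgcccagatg
Intergenic, chromosome 13, chr13:48552280-48552437: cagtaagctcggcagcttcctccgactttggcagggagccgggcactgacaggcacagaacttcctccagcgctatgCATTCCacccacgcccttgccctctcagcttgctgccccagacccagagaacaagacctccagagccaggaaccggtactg
Klf13 exon, chr7:63938103-63938198: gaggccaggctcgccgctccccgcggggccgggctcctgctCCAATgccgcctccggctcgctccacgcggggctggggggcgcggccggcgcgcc
The Nup35 and Cyld sequences are dense in CpG and hold GC boxes, and in the Cyld run a forward and a reverse CRE half-site overlap. The intergenic run near Pgf holds 1 CpG and an E-box, the element bound by MyoD-family factors among others. The Mtch2 and Taco1 runs hold no match to any of the 13 motifs.

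The longest run, of 209 bp, lay in the promoter window of Nup35, which encodes a nuclear pore protein, at chr2:80638941-80639149, with its centre 229.5 bp downstream of the start site. Its strongest −log10 q was 6.00 in replicate 1 and 12.9 in replicate 2, and 60 bp separated it from a peak. The peaks nearest to it had signal 5.05 in replicate 1 and 6.32 in replicate 2. In replicate 2 the run was part of a continuous significant stretch of 756 bp that held the peak, while in replicate 1 the significant stretch was the run alone, 209 bp. The run at Cyld, a deubiquitinase that restrains NF-kB signalling, was 203 bp long, at chr8:88697204-88697406, with a centre 230.5 bp downstream of the start site. Its strongest −log10 q was 3.67 in replicate 1 and 9.87 in replicate 2, and the nearest peaks, 203 bp or more away, had signal 14.2 in replicate 1 and 8.72 in replicate 2. Both runs sat at nearly the same distance inside their genes. The neighbouring peaks stood at percentiles 90.6 in replicate 1 and 96.9 in replicate 2 at Nup35, and at 99.05 in replicate 1 and 99.08 in replicate 2 at Cyld.

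Replicate 2 was again the stronger library at the other 5 promoter runs among the 10 longest. The run at Mtch2, which encodes a protein of the mitochondrial outer membrane, was 159 bp long with strongest −log10 q 4.01 in replicate 1 and 11.9 in replicate 2, centred 296.5 bp downstream of the start site. The run at Taco1, a translational activator of a mitochondrially encoded oxidase subunit, was 157 bp long with −log10 q 4.87 in replicate 1 and 11.9 in replicate 2, centred 266.5 bp downstream. Promoter runs of 200 bp at Wdr13 on chromosome X, 160 bp at Asdurf and Asnsd1, and 158 bp at the choline transporter gene Slc44a1 completed the promoter members of the 10 longest, with −log10 q of 4.005 to 6.22 in replicate 1 and 7.39 to 12.9 in replicate 2.

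The other 3 of the 10 longest runs were intergenic. The run of 198 bp at chr12:85194545-85194742 had its centre at -16854 bp from the coding start of Pgf, which encodes placental growth factor, and had a nearly equal −log10 q of 5.45 in replicate 1 and 5.35 in replicate 2. It was the only one of the 610 that contained a footprint (a short protected stretch within open DNA) of replicate 1 overlapping one of replicate 2. The run of 159 bp at chr15:78624480-78624638, centred 27506.5 bp downstream of the start of Cyth4, had 5.15 in replicate 1 and 10.5 in replicate 2. The run of 158 bp at chr13:48552280-48552437 had 4.404 in replicate 1 and 12.3 in replicate 2. The longest intronic run, 119 bp at chr8:122281051-122281169, lay 191 bp from the nearest peak, of replicate 2, with signal 11.6, and the nearest peak of replicate 1 had signal 14.6. The longest exonic run, 96 bp at chr7:63938103-63938198 in Klf13, a zinc-finger transcription factor gene, had −log10 q of 3.71 in replicate 1 and 6.03 in replicate 2.

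Across all 610 runs the median length was 33 bp (quartiles 24 and 54, highest 209), against 234 bp for runs in peaks. Just outside the length threshold were 225 runs of 15 to 19 bp that overlapped no peak, and just inside it were 161 runs of 20 to 24 bp. At the border of the overlap rule, 25 outside runs came within 5 bp of a peak, 4 of them touching it, and 26 runs in peaks overlapped one by 1 to 5 bases. Most of the outside runs were therefore short, and a part of them lay at the border by construction.

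The evidence for the runs was unequal between the animals. The strongest −log10 q had a median of 3.50 in replicate 1 (quartiles 3.34 and 3.77, highest 26.0), close to the threshold of 3, and of 7.59 in replicate 2 (quartiles 5.35 and 10.6, highest 58.6). For runs in peaks the medians were 9.997 in replicate 1 and 9.40 in replicate 2. Replicate 2 had the stronger value at 89.7% of outside runs (interval 87.0 to 92.0%), against 40.9% of runs in peaks (40.4 to 41.4%). A q-value of 1e-05 or less was reached by 26 outside runs in replicate 1, by 482 in replicate 2 and by 5 in both. Over the 610 runs the rank correlation of the strongest −log10 q between libraries was -0.18, a description of runs that share 2 libraries and were cut at the same threshold.

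**Figure D1:**
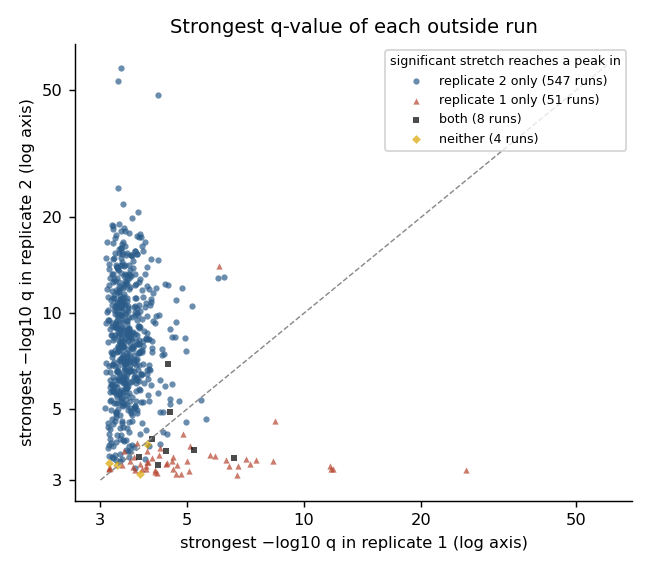
Strongest −log10 q of each of the 610 outside runs in replicate 1 (horizontal, log axis) and replicate 2 (vertical, log axis); the dashed line marks equal values, and colours show in which library the run's own significant stretch reaches a longer-list peak. Most runs form a column near the threshold of 3 in replicate 1 and spread upward in replicate 2. Replicate 1 has the stronger value at 63 runs.

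The rule nearly forced a break before the peak in at least 1 library, since a run unbroken to a shared peak would overlap it. Which library was broken, or whether both were, was left free. In replicate 2 the stretch of bases at or below 0.001 that held the run also held a peak of that library at 547 runs (89.7%) where this was not so in replicate 1. At these runs the stretch was 916 bp long in replicate 2 and 35 bp in replicate 1 (medians), so an island in replicate 1 lay under a broad significant stretch of replicate 2. The reverse held at 51 runs (8.36%), with medians of 420 bp in replicate 1 and 26 bp in replicate 2. The stretch reached a peak in both libraries at 8 runs and in neither at 4. Promoters made up 85.4% of the 547 runs (interval 82.1 to 88.2%) and 45.1% of the 51 (31.1 to 59.7%).

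A few sites, chosen after their values were seen, show how far the libraries could part. At Plec, which encodes the cytolinker plectin of muscle and skin, the run at chr15:76197934-76197978 had −log10 q of 26.0 in replicate 1, the highest of all, and 3.23 in replicate 2. At Lrrfip1 the run at chr1:90998985-90999014 had 3.39 in replicate 1 and 58.6 in replicate 2. The run at Naprt, which encodes an enzyme of NAD synthesis, at chr15:75894515-75894542 had 3.33 in replicate 1 and 53.2 in replicate 2. In each case the weaker library held a bare island of 45, 30 or 28 bp, the whole length of the run, and the stronger one a stretch of 2726, 2244 or 1707 bp.

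Every outside run belonged to a larger open region. All bases listed below a q-value of 0.05 were joined into regions, and the region that held the run also held a longer-list peak at 610 of 610 runs in replicate 1 and at 610 of 610 in replicate 2. These regions were wide, with a median of 822 bp in replicate 1 and 1113 bp in replicate 2, against 367 bp and 568 bp around runs in peaks. They held more than 1 peak at 32.5% of outside runs in replicate 1 and 36.7% in replicate 2, against 17.99% and 24.97% for runs in peaks. The bases between a run and its library's nearest peak were all listed below 0.05 at 588 runs in replicate 1 and 604 in replicate 2. At or below 0.001 this was so at 59 runs in replicate 1 and 541 in replicate 2, and a median of 13 bases in replicate 1 broke the stretch.

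**Figure D2:**
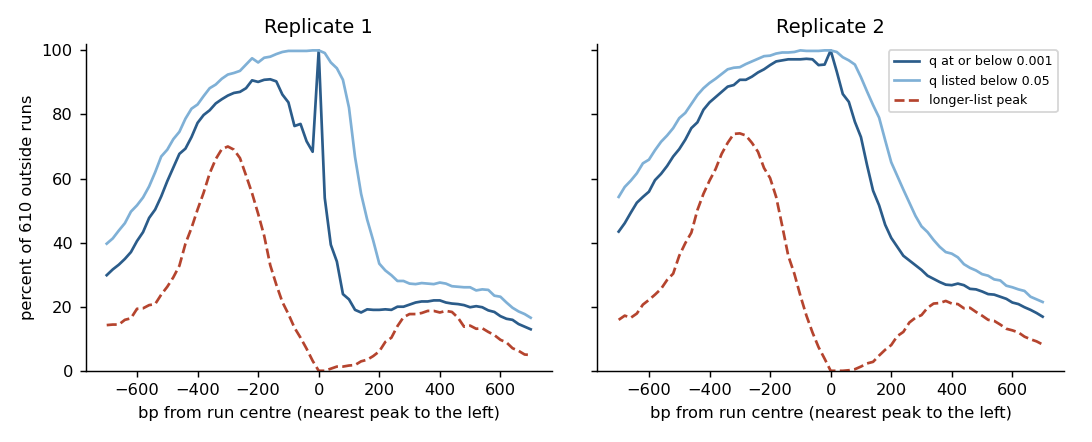
Percent of the 610 outside runs (vertical) that have, at each distance from the run's centre in bp (horizontal, nearest longer-list peak to the left), a base at or below a q-value of 0.001, a base listed below 0.05, or a longer-list peak, in replicate 1 and replicate 2. At 0 bp all runs are significant by the rule; at 100 bp on the side away from the peak 22.3% stay at or below 0.001 in replicate 1 and 73.0% in replicate 2.

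The gap to the nearest peak of either longer list had a median of 118 bp (quartiles 59 and 177), with 4 runs touching a peak and the farthest 437 bp away. By distance, 58 other runs lay within 20 bp of a peak, 69 beyond that and within 50 bp, and 125 beyond that and within 100 bp. The next 146 lay within 150 bp, 92 within 200 bp, 92 within 300 bp and 24 within 500 bp. Distances beyond 500 bp held 0 runs, so none lay over 10 kb from a peak. This limit rested on both libraries and the longer lists. With the q-values and peaks of replicate 2 alone, 36 runs lay over 1 kb from a peak of that library, the farthest at 116884 bp. With the shorter lists 7 runs lay over 1 kb from a shorter-list peak, the farthest at 195504 bp. The farthest run, chosen after its value was seen, was 100 bp of an intron of Pcmt1, a protein repair methyltransferase gene, at chr10:7662644-7662743, with −log10 q of 3.78 in replicate 1 and 7.63 in replicate 2. Peaks were present on both sides within 500 bp at 208 runs (34.1%, interval 30.3 to 38.01%).

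Measured between centres, the distance had a median of 285 bp (quartiles 222 and 348). The fullest interval was 250 to 299 bp with 127 runs, followed by 300 to 349 bp with 114 and 200 to 249 bp with 107, while 1 run lay under 50 bp and 13 at 50 to 99 bp. Peaks had median widths of 180 bp in replicate 1 and 200 bp in replicate 2. The nearest peak was taken from replicate 2 at 416 runs and from replicate 1 at 194. Where peaks of both libraries were equally near, as at the run near Pgf, only the first in sorted order was counted. Part of this split can therefore reflect sorting order.

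**Figure D3:**
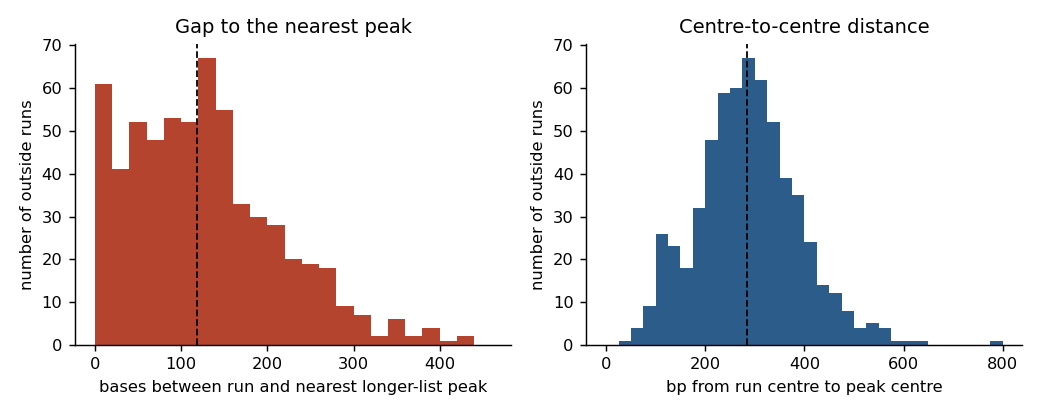
Number of outside runs (vertical) by bases between the run and the nearest longer-list peak (left, 20 bp bins) and by distance between run centre and peak centre in bp (right, 25 bp bins); dashed lines are the medians, 118 bp and 285 bp. No gap exceeds 437 bp.

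The neighbouring peaks were strong. The nearest peak of replicate 1 had a median signal of 5.03, at percentile 90.6 of that library's longer list, and that of replicate 2 had 4.23, at percentile 92.6. Peaks that held the runs in peaks stood at median percentiles 76.0 in replicate 1 and 78.1 in replicate 2. The lowest nearest peak, chosen after its value was seen, had signal 0.382 in replicate 1, beside a run of 24 bp at the start of Eml5.

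The name "outside every peak" did not hold for all lists of the authors. They deposited for each library a second, shorter list, of 50760 peaks in replicate 1 and 49230 in replicate 2, against 83409 and 83736 in the longer lists. Although most of the shorter lists lay within the longer ones, 428 of their peaks in replicate 1 (0.843%) and 972 in replicate 2 (1.97%) overlapped no longer-list peak. Of the 610 outside runs, 271 (44.4%, interval 40.4 to 48.5%) overlapped a shorter-list peak, 257 of them in replicate 1 and 14 in replicate 2, and 0 in both. The other 339 (55.6%) overlapped no peak of the 4 lists.

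The shorter-list peaks at the runs were low. Their signal had a median of 0.801 in replicate 1 (range 0.444 to 2.33) and 0.927 in replicate 2 (0.486 to 1.65), against 1.76 and 1.33 over all peaks of those lists. Runs in such a peak were longer, with a median of 58 bp against 26 bp for runs in none, and lay 132 bp against 106 bp from the nearest longer-list peak. The promoter share was 83.4% in the runs with a shorter-list peak and 79.6% in those without one, and the intervals (78.4 to 87.6% and 74.96 to 83.8%) overlapped. All 12 runs described above by length or class overlapped a shorter-list peak of replicate 1, with signal between 0.629 at Asdurf and 2.26 near Pgf.

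Promoters dominated the locations. Promoter windows, 500 bp either side of any annotated start site, were overlapped by 496 outside runs (81.3%, interval 78.0 to 84.3%), against 46.3% of runs in peaks (45.8 to 46.8%). Exons outside promoters held 18 outside runs (2.95%), against 5.48% of runs in peaks. Introns held 43 (7.05%), against 24.6%, and intergenic sequence held 53 (8.69%), against 23.7%. With protein-coding start sites alone, 468 outside runs (76.7%) were at promoters, against 39.1% of runs in peaks. With the q-values and peaks of a single library, the share was 37.6% for replicate 2 and 68.2% for replicate 1.

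The width of the open region moved with this share. Runs in peaks whose region below 0.05 was at least as wide as the lower quartile of outside runs in both libraries numbered 6399. Of these, 89.7% were at promoters (interval 89.0 to 90.5%), beside 81.3% of all outside runs. No width limit was applied to the outside runs, so these sets are not matched in width. The same holds below wherever runs in peaks with wide regions are given. Among the 1057 of the 6399 runs that were no longer than the longest outside run the share was 78.1% (75.4 to 80.5%). By length alone, without regard to region width, 25.8% of 16107 runs in peaks of up to 209 bp were at promoters.

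**Figure D4:**
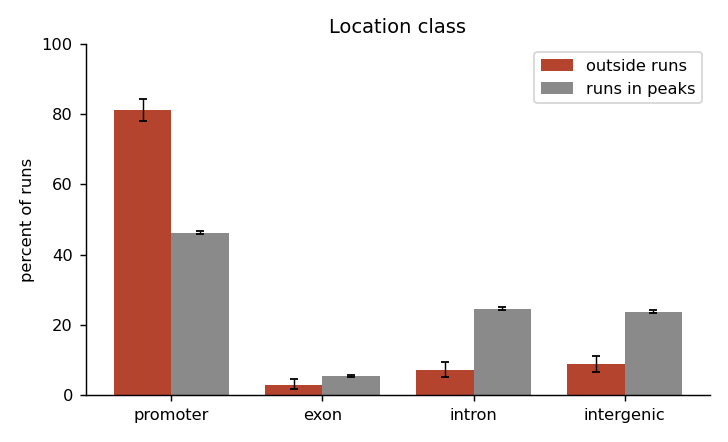
Percent of runs (vertical) in each location class for the 610 outside runs and the 35620 runs in peaks, with exact 95% intervals for counting error as bars. The promoter class holds 81.3% of outside runs and 46.3% of runs in peaks.

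Promoter runs had higher values in replicate 2 and wider gaps than the other classes. In replicate 2 their median strongest −log10 q was 8.22, against 5.87 in exons, 4.52 in introns and 4.52 between genes. In replicate 1 the medians of the classes stayed between 3.49 and 3.59. The median gap to a peak was 126.5 bp at promoters, 77 bp in exons, 65 bp in introns and 79 bp between genes.

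At promoters the runs lay mainly downstream of the start site. Of 426 outside runs at coding promoters with start sites on 1 strand, the centre of 319 (74.9%, interval 70.5 to 78.9%) was downstream of the nearest start site, at a median of 226 bp downstream over all 426. Centres between 100 and 500 bp downstream made up 68.5%, centres between 100 and 500 bp upstream 19.7%, and centres within 100 bp 9.62%. Of 12767 runs in peaks at such promoters 45.6% were downstream (44.8 to 46.5%), the median position was -8 bp, and 58.5% lay within 100 bp. Outside runs cannot lie where peaks lie, so the share near the start follows in part from the rule.

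The space left by peaks was nearly even on both sides. Around 22326 coding start sites with a peak and start sites on 1 strand, 50.5% of the bases outside peaks and within 500 bp were downstream. Of such bases at or below a q-value of 0.001, 53.5% were downstream in replicate 1, 59.8% in replicate 2 and 54.6% where both libraries were significant, start sites of the same gene being counted separately. Runs in peaks with wide regions were downstream at 52.4% (50.9 to 53.8%). The downstream share of the outside runs, 74.9%, was higher than these values, but it is a share of run centres. Only the 52.4% is also a share of centres, and the others are shares of bases. The bases significant in both libraries came to 1459 kb downstream and 1212 kb upstream, against 28.9 kb in all outside runs. Nearly all of them thus lay in other runs, and they are not a matched background for the outside runs.

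Relative to the peak, 273 of the 426 runs (64.1%, interval 59.3 to 68.7%) lay on the side of transcription. Those were centred at a median of 252 bp downstream of the start site with a gap of 138 bp to the peak, and the runs on the other side at a median of -48 bp with a gap of 93 bp. The single fullest stretch of 100 bp was 200 to 299 bp downstream, with 126 runs (29.6%). Promoters with start sites on both strands made up 42 of 468 outside runs (8.97%, interval 6.54 to 11.9%), against 8.44% of runs in peaks.

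**Figure D5:**
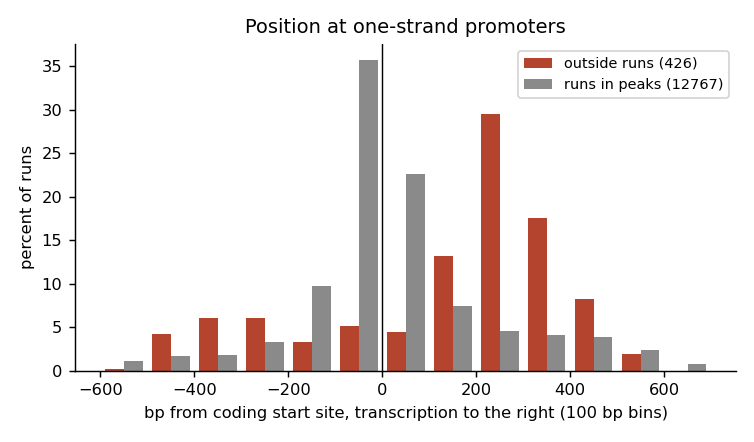
Percent of runs (vertical) by position of the run's centre from the nearest coding start site in 100 bp bins (horizontal, transcription to the right), for the 426 outside runs and the 12767 runs in peaks at promoters with start sites on 1 strand. Outside runs are most frequent at 200 to 299 bp downstream (29.6%), runs in peaks in the 100 bp just upstream of the start (35.8%).

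An outside run covered 0 of the protein-coding genes without a promoter peak. Genes were counted by all their coding start sites together. Single peakless promoters of genes with a peak elsewhere, and non-coding promoters, were therefore not counted. Of 21864 protein-coding genes, 14020 (64.1%) had a longer-list peak of either library within 500 bp of a start site, and 7844 had none. With the q-values and peaks of 1 library, the rule covered 2 of 8214 genes lacking a replicate 2 peak and 1 of 8598 lacking a replicate 1 peak. The 0 of 7844 genes allows a share of up to 0.0382%, as far as counting error goes. This limit is 3 counts of 7844 and not an exact Clopper-Pearson interval. Outside runs reached the promoter windows of 425 genes (1.94% of the 21864). Each of these genes had a peak at 1 or more of its coding start sites, which need not be the one beside the run. With the shorter lists in place of the longer ones, 9038 genes had no promoter peak, and an outside run covered 1 of them, Elp5, which encodes a subunit of the Elongator complex and was named after its values were seen. This run of 20 bp, which also lay in the promoter window of Ctdnep1, a nuclear envelope phosphatase gene, was at chr11:69980992-69981011, with −log10 q of 3.18 in replicate 1 and 12.9 in replicate 2, 227 bp from a longer-list peak.

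Among the 425 genes, 75 had more than 1 outside run in their windows. Sac3d1 had 4 runs of 71, 37, 54 and 42 bp in a row, 347 to 505.5 bp downstream of its start, with −log10 q of 3.56 to 3.69 in replicate 1 and 11.9 to 14.6 in replicate 2, all within 1 stretch of 842 bp in replicate 2. Atp6v0d1, a subunit of the vacuolar proton pump, and Fuca1, a lysosomal fucosidase, had 3 runs each of 171 and 164 bases in sum. These genes were chosen after their values were seen.

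Few genes of muscle function carried an outside run, as did few genes of any kind. The background was 1.94% of genes for an outside run in a promoter window and 3.37% (738 of 21924) for one in the gene body or within 10 kb. Of the contractile and sarcomere list, 25 of 33 genes had a promoter peak, and 0 had an outside run at either. Energy metabolism (24 of 24 with a peak), muscle regulators such as Myod1 and Mef2a (20 of 20) and neuromuscular junction genes (8 of 12) likewise had 0 runs. With so low a background, counts of 0 in lists of 12 to 33 genes are not a result about these genes.

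Of 12 genes of calcium handling and the triad, 11 had a promoter peak and 1, Atp2a2, had a run. Atp2a2 encodes the calcium pump of slow muscle and heart, and its run of 21 bp at chr5:122501877-122501897 had −log10 q of 3.23 in replicate 1 and 3.51 in replicate 2, 16 bp from a peak. Among 15 early response and clock genes, Egr1 had a promoter run of 25 bp with 3.43 in replicate 1 and 4.01 in replicate 2. Atf3, a stress-induced transcription factor gene, had a run of 147 bp, at chr1:191224044-191224190, centred at -6078.5 bp from its nearest coding start, with 3.73 in replicate 1 and 10.4 in replicate 2. Among 10 housekeeping genes, Ppia (cyclophilin A) had a promoter run of 84 bp at chr11:6415392-6415475 with 3.51 in replicate 1 and 7.09 in replicate 2. A run of 79 bp at chr17:15526951-15527029 lay in the promoter window of Pdcd2 and within 10 kb of Tbp, the TATA-binding protein gene, with 3.47 in replicate 1 and 10.6 in replicate 2. Atp2a2 and Egr1 had runs under 50 bp and were named after their values were seen.

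Outside runs held few footprints. A deposited footprint lay wholly inside 6 runs in replicate 1 (0.984%, interval 0.362 to 2.13%) and 64 in replicate 2 (10.5%, 8.17 to 13.2%), and 1 run held a footprint shared by both. A footprint counted as shared when it was a replicate 1 footprint, wholly inside the run, that overlapped a replicate 2 footprint by 1 base or more. Among runs in peaks the shares were 85.3% in replicate 1, 87.3% in replicate 2 and 76.5% shared. Short runs have less room for a footprint, and the part of run length in these shares was not tested. Of runs in peaks of up to 209 bp, the longest outside run, 71.0% held one in replicate 1 and 73.9% in replicate 2. Of those in wide regions as well, 7.47% did in replicate 1 and 23.6% in replicate 2. This limit does not match the lengths, since the median outside run was 33 bp.

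The runs were rich in G, C and CpG. In windows of 200 bp around the run centre the median GC content was 64.5%, against 58.5% for runs in peaks, and the ratio of observed to expected CpG was 0.753, against 0.483. Windows with GC above 55% and a CpG ratio above 0.6 made up 61.8% (interval 57.8 to 65.7%), against 37.6% of runs in peaks (37.1 to 38.1%) and 80.6% of runs in peaks with wide regions. Within the promoter class the medians were close, with GC 67.0% for outside runs and 66.0% for runs in peaks, and a CpG ratio of 0.788 for outside runs and 0.801 for runs in peaks. No repeat-masked base was present in 88.0% of outside runs, against 54.5% of runs in peaks, which were longer, and 4 outside runs were masked throughout. Chromosome X held 11 outside runs (1.80%), against 2.32% of runs in peaks, and chromosome Y held 0.

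Motif matches were counted in 50 bp windows centred on the runs, on both strands, and are matches of letters and not binding sites. The GC box GGGCGG, bound by Sp and Klf factors, was in 13.4% of outside runs and 13.8% of runs in peaks, but at promoters in 14.7% of outside runs and 23.6% of runs in peaks. The NF-Y site CCAAT, typical of sequence just upstream of start sites, was in 2.62% of outside runs and 7.37% of runs in peaks, and at promoters in 1.61% and 9.57%. The ETS site CCGGAAG was in 0.984% and 2.04%, and the NRF1 consensus and the YY1 site AAGATGGCG were in 0 outside runs against 0.208% and 0.292% of runs in peaks. The core of the CTCF site was in 2 outside runs (0.328%), against 7.36% of runs in peaks, and at promoters in 0.202% and 1.68%.

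Motifs of muscle factors gave low counts as well. The E-box CAGCTG was in 2.95% of outside runs, against 5.91% of runs in peaks, and at promoters in 3.02% and 3.41%. The MEF2 site was in 0.328% and 0.404%, and the MCAT site CATTCC, bound by TEAD factors, in 2.30% and 2.49%, but at promoters in 2.02% of outside runs and 1.82% of runs in peaks. The AP-1 site TGANTCA was in 0.492% of outside runs and 1.95% of runs in peaks, and at promoters in 0.605% and 0.892%. Over all windows the CRE half-site TGACG was in 4.92% and 5.24%, and the TATA box TATAAA in 0.492% and 0.626%. The palindromic NFI site was in 0 outside runs and 0.0140% of runs in peaks. For none of the 13 motifs was the share over all windows higher in outside runs than in runs in peaks, and within promoters it was higher for MCAT alone.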

How the data were processed

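DNase-seq files of 2 libraries, 1 per mouse, were used. Per the deposited file listing the authors used the mm10 assembly and derived each file from its own library without pooling; the aligner, the peak and footprint callers and tool versions were not given in the sources used here, nor was the handling of CAST/EiJ reads. The authors deposited per library a table of q-values (false discovery rates) per run of bases below 0.05, 2 peak lists with a signal value (height of cleavage density, scaling not stated) and a footprint list whose value is 0.01 on every line, used by position only. Depth in reads is unknown.

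From these, bases at or below 0.001 in both libraries were joined with bedtools 2.31.1 into runs of 20 bp or more, and a run sharing 1 base or more with a longer-list peak of either library was in a peak. A gap is the number of bases between run and peak. The run finder was tested on simulated intervals. Start sites came from GENCODE mouse release M21 (41421 coding sites, 132666 in all) and sequences from RefSeq GRCm38.p6, read with pysam 0.24.0. Location classes were assigned in the order promoter, exon, intron, intergenic. Intervals were exact Clopper-Pearson (scipy 1.17.1).

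No test was run, since the labels give 1 group of 2. Named runs were the 10 longest, the longest per class and the 5 longest over 10 kb from a peak (there were 0). Named genes were list members with a run of 50 bp or more and covered genes without a promoter peak. The members and lists were chosen with earlier results of these data known. Other settings of q-value, length, peak list, distance, joining and start sites were tried.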

Additional observations from a re-analysis of the deposited data

How the results depend on the processing

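No paired analysis was possible because the data hold 1 group and no comparison between groups. The 610 outside runs became 5672 with no minimum length, 171 with a minimum of 50 bp, 60 with 100 bp, 208 when only runs over 150 bp from a peak were kept, 212 when runs were joined across gaps of up to 20 bp, and 339 against all 4 peak lists, an alternative chosen after seeing the data. Leaving out a replicate, both its q-values and its peaks, gave 1076 to 2667 runs. The counts at q-values of 0.01 (819) and 0.0001 (451) and with the shorter peak lists (479) stayed within 1.5 times.

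The median gap of 118 bp was 105 bp at 0.0001, 78 bp with no minimum length, 102.5 bp with 100 bp, 66 bp with the shorter lists, 207.5 bp over 150 bp from a peak and 91 bp against all 4 lists, and without a replicate it was 115 to 124.5 bp. The largest gap stayed below 1 kb except with the shorter lists, where it was 195504 bp (7 runs over 1 kb), and without replicate 1, where it was 116884 bp (36 runs).

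The promoter share of 81.3% was 77.2% at 0.01, 72.7% with no minimum length, 86.0% with 50 bp, 86.7% with 100 bp, 72.7% with the shorter lists, 91.3% over 150 bp from a peak, 77.8% after joining, 76.7% with coding start sites, 55.4% within 250 bp, and 37.6 to 68.2% without a replicate. The count of 0 covered genes without a promoter peak became 1 at 0.0001, with no minimum length, with the shorter lists and with a window of 1000 bp. It became 1 to 2 without a replicate. The causes were not tested. Unknown depth limits every absence of a peak to the authors' thresholds.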
